A study of Bos taurus with 12 samples.

Results

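The peroxiredoxins and thioredoxins measured here were 10 genes, PRDX1 to PRDX6, TXN, TXN2, TXNRD1 and SRXN1, of 30336 gene IDs counted in calf liver. They were found by matching each symbol to its Entrez gene ID in the bovine RefSeq gene table, without use of their values, and all 10 passed the filter on low counts that left 13212 genes to test. The liver was biopsied from Holstein heifer calves at 4 d of age. All dams received the same basal close-up diet before calving, alone (CON, 6 calves) or with ethyl cellulose rumen-protected Met, the product Mepron, for the last 28 d of pregnancy (MET, 6 calves), and after birth the calves were managed alike. Polyadenylated RNA was sequenced in 12 stranded libraries on 1 lane, one library per calf by the labels. The calves were a subset of a larger cohort, only heifers were sampled, and the RNA is that of the whole biopsy rather than of one cell type.

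Peroxiredoxins are peroxidases that reduce hydrogen peroxide and lipid peroxides through a reactive cysteine. In the typical members the oxidized cysteine is restored by thioredoxin, which thioredoxin reductase recharges with electrons from NADPH, whereas PRDX6 uses glutathione. Sulfiredoxin rescues peroxiredoxins whose cysteine has been oxidized too far, and hepatocytes handle peroxide from mitochondria, peroxisomes and protein folding.

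Between 8277789 and 10397604 reads were counted per library, and each member had between 41 (SRXN1) and 1621 (PRDX3) reads in a library. CON replicate 1 was almost the same in its counts as CON replicate 4, and MET replicate 1 as MET replicate 3 (chi-square per gene of 1.31 and 1.23, close to counting error, against 23.3 to 122 for the other 64 pairs of libraries), so each such pair was averaged as 1 sample, which left 5 samples per diet. MET replicate 5 was the library farthest from the rest, since the 9 highest of the 66 values (78.1 to 122) were all pairs with it. All means ± SD below are over these samples (n = 5 per diet), in CPM, the read count scaled to library size. All CON libraries shared one first index and all MET libraries another, and a difference by index could not be separated from one by diet. The 8 hepatocyte markers, ALB among them, summed to between 136400 and 183700 CPM in CON (median, 169900) and 111300 and 144700 CPM in MET (median, 138300), and 1 of 8, APOB, passed FDR ≤ 0.10 in edgeR between diets over 12 libraries (2 of 8 in DESeq2). Those of Kupffer cells, of which 2 of 10 passed in edgeR and 4 in DESeq2, where 4.41% and 9.95% of all genes did, summed to between 1421 and 1879 CPM in CON and 1705 and 2263 CPM in MET. None of these markers passed in edgeR over 10 samples, and the part of these cell types in the diet differences was not tested.

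Scaled per 1000 exonic bases, TXN mRNA was the most abundant of the set, with a median of 254 CPM per kb over the 10 samples (range, 202 to 310). PRDX5 came next at 92.2 CPM per kb, and TXN, at 2.75 times its median, was above it in 10 of 10 samples. TXN2 (79.9), PRDX3 (67.8), PRDX6 (65.7), PRDX1 (58.3), PRDX2 (57.0) and PRDX4 (47.9 CPM per kb) followed, and from PRDX5 to PRDX4 no gene exceeded the next in order in all 10 samples, so that neighbours in this stretch were not separated by more than their spread. TXNRD1 at 9.30 CPM per kb lay 5.16-fold below PRDX4, and SRXN1 at 3.91 CPM per kb was the least abundant, each below the gene before it in 10 of 10 samples. In level per kb the 6 peroxiredoxins and both thioredoxins therefore exceeded at least 90.7% of all tested genes, whereas TXNRD1 exceeded 65.4% and SRXN1 43.5%.

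The members differed in how much they varied between calves of one diet. TXNRD1 had a within-diet SD of 0.13 on the log2 CPM scale, smaller than that of all but 9.77% of the genes of like abundance (mean within 0.5 on the log2 CPM scale), and its CV was 9.65% in CON and 8.52% in MET. SRXN1 (SD, 0.55) and PRDX4 (SD, 0.48) were the most variable, above 91.7% and 91.1% of the genes of like abundance. For each the spread was wider in one diet: the CV of SRXN1 was 49.7% in CON and 21.2% in MET, and that of PRDX4, which encodes the peroxiredoxin of the endoplasmic reticulum (ER), 22.9% in CON and 43.0% in MET.

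**Figure D1:**
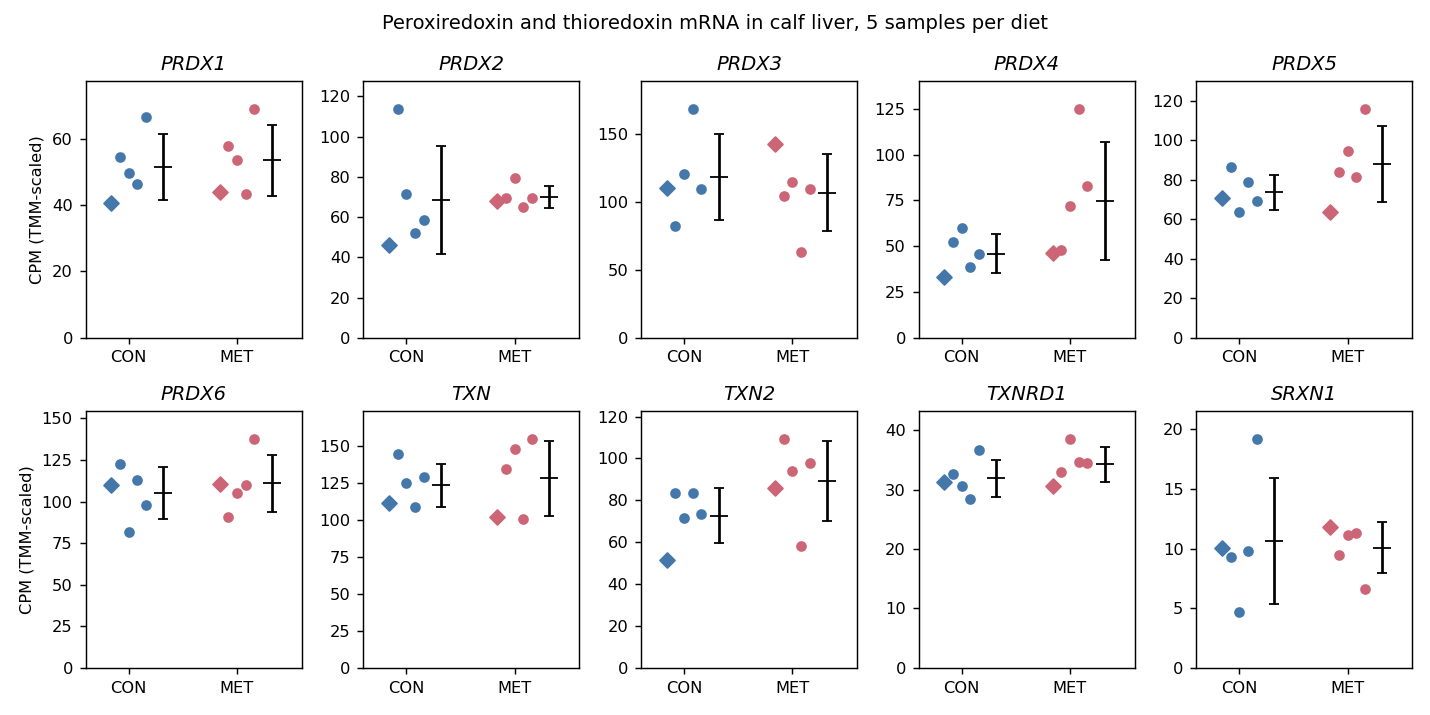
CPM of each of the 10 genes (vertical axes, from 0) in the 5 CON (blue) and 5 MET (red) samples, with diamonds for the samples that average 2 libraries and black marks for the mean ± SD. CON and MET overlap in every panel, and the highest sample is CON replicate 2 for PRDX2, MET replicate 5 for PRDX4 and CON replicate 6 for SRXN1.

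To ask whether maternal Met supply was accompanied by a different mRNA level of this system, MET was compared with CON in all 12 libraries with edgeR's quasi-likelihood test, as log2 fold changes of MET against CON. None of the 10 members passed FDR ≤ 0.10 in edgeR (0 of 10, with FDR from 0.154 to 0.971), where 4.41% of all tested genes did, and 1 of 10 had an unadjusted p ≤ 0.05, against 20.5% of all genes. DESeq2 called 1 member, PRDX4, over 12 libraries, against 9.95% of all genes, and 0 over 10 samples, against 4.72%. With the 2 pairs of libraries counted once, edgeR again called 0 of 10 members and 0 of all tested genes (0.0%), with 1 member and 16.4% of all genes at an unadjusted p ≤ 0.05. Without MET replicate 5, edgeR called 0 of 10 members both among the libraries, where 340 of all genes passed, and among the samples that remained. In each, 1 member had an unadjusted p ≤ 0.05, but it was TXN2 (log2 fold change, 0.45 and 0.41). PRDX4 (0.43 and 0.44), which was that member with all libraries and with all samples, no longer reached it. In no member did the 5 MET samples lie wholly above or below the 5 CON samples, which 3.71% of tested genes did.

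Among the peroxiredoxins, PRDX4 had the largest difference. PRDX4 (Entrez ID 281999, chromosome X, 126551742 to 126564705 on the minus strand of UMD 3.1.1) encodes the peroxiredoxin of the ER, which removes the peroxide that accompanies disulfide bond formation. Its CPM was 33.4 in CON replicates 1 and 4, 52.0 in replicate 2, 59.9 in replicate 3, 38.6 in replicate 5 and 45.6 in replicate 6, and 46.4 in MET replicates 1 and 3, 47.8 in replicate 2, 72.1 in replicate 4, 125 in replicate 5 and 83.0 in replicate 6. MET replicates 4, 5 and 6 lay above every CON sample and the other MET samples lay within the CON range, so the diets overlapped. The mean was 45.9 ± 10.5 in CON and 74.9 ± 32.2 CPM in MET. The log2 fold change was 0.68 (SE, 0.25, 95% interval, 0.14 to 1.21, edgeR FDR = 0.154) over 12 libraries and 0.71 (95% interval, 0.13 to 1.29, edgeR FDR = 0.237) over 10 samples. The exact permutation test over the 10 samples gave a two-sided p of 0.0714, and 0.36 after adjustment over all genes tested. DESeq2 put PRDX4 at FDR = 0.0924 over 12 libraries and at FDR = 0.142 over 10 samples. Without MET replicate 5 the log2 fold change over 10 samples was 0.44 (edgeR FDR = 0.375). In bulk tissue, a different share of a cell type and a different amount of RNA per cell cannot be told apart, here and in every comparison that follows.

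The other 5 peroxiredoxins differed by less. PRDX1 (Entrez ID 281997, chromosome 3, 101152892 to 101166719, plus strand), an abundant cytosolic peroxidase, had 40.5, 54.6, 49.5, 46.3 and 66.4 CPM in CON replicates 1 and 4, 2, 3, 5 and 6, and 43.8, 57.9, 53.4, 43.4 and 69.1 CPM in MET replicates 1 and 3, 2, 4, 5 and 6, an order of samples kept for every gene that follows. Replicate 6 was the highest sample in both diets and the ranges nearly coincided. The means were 51.4 ± 9.81 and 53.5 ± 10.7 CPM, and the log2 fold change over 10 samples was 0.06 (95% interval, -0.30 to 0.42, edgeR FDR = 0.896).

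PRDX2 (Entrez ID 286793, chromosome 7, 13844492 to 13848481, plus strand), a cytosolic peroxidase that is among the most abundant proteins of red cells, had 46.2, 114, 71.2, 52.3 and 58.7 CPM in CON and 67.8, 69.4, 79.3, 64.9 and 69.6 CPM in MET. CON held both the highest sample, replicate 2, and the lowest ones, whereas the MET samples lay close together inside the CON range, with a CV of 7.74% against 39.5% in CON. The means were 68.5 ± 27.1 and 70.2 ± 5.43 CPM. The log2 fold change over 10 samples was 0.04 (95% interval, -0.43 to 0.50, edgeR FDR = 0.953). Without CON replicate 2 it was 0.29 (edgeR FDR = 0.324).

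PRDX3 (Entrez ID 281998, chromosome 26, 39672038 to 39681392, minus strand) is the main peroxiredoxin of the mitochondrial matrix. It had 110.3, 82.3, 121, 169 and 109.6 CPM in CON and 143, 105, 115, 63.1 and 109 CPM in MET. CON replicate 5 was the highest sample and MET replicate 5 the lowest, below every CON sample, and the other samples overlapped. The means were 118 ± 31.6 and 107 ± 28.6 CPM, and the log2 fold change over 10 samples was -0.15 (95% interval, -0.63 to 0.34, edgeR FDR = 0.780), and -0.01 without MET replicate 5.

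PRDX5 (Entrez ID 282885, chromosome 29, 43229777 to 43232885, plus strand) is found in mitochondria, peroxisomes and cytosol, and had 71.0, 86.4, 63.7, 78.9 and 69.2 CPM in CON and 64.0, 83.9, 94.6, 81.4 and 116 CPM in MET. MET replicates 4 and 6 lay above every CON sample, and the pair of MET replicates 1 and 3 was close to the lowest CON value. The means were 73.8 ± 8.87 and 88.0 ± 19.2 CPM, and the log2 fold change over 10 samples was 0.25 (95% interval, -0.09 to 0.59, edgeR FDR = 0.444). Without MET replicate 6 it was 0.13 (edgeR FDR = 0.71).

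PRDX6 (Entrez ID 282438, chromosome 16, 56389804 to 56399723, plus strand), the peroxiredoxin that also has phospholipase activity, ranged from 81.7 to 123 CPM in CON (median, 110.2) and from 90.7 to 138 CPM in MET (median, 110.0). Only MET replicate 6 exceeded the CON range. The log2 fold change over 10 samples was 0.08 (95% interval, -0.24 to 0.39, edgeR FDR = 0.832).

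Of the electron donors, TXN2 came closest to the threshold. TXN2 (Entrez ID 281557, chromosome 5, 75258029 to 75267776, minus strand), the mitochondrial thioredoxin that serves PRDX3, had 51.7, 83.3, 71.6, 83.6 and 73.5 CPM in CON and 85.8, 109, 93.9, 58.4 and 97.7 CPM in MET. All MET samples but replicate 5 lay above every CON sample, and MET replicate 5 lay above only the pair of CON replicates 1 and 4. The means were 72.7 ± 13.0 and 89.1 ± 19.1 CPM. The log2 fold change was 0.35 (95% interval, -0.00 to 0.71, edgeR FDR = 0.245) over 12 libraries and 0.29 (95% interval, -0.10 to 0.68, edgeR FDR = 0.439) over 10 samples. Without MET replicate 5 it was 0.41 (edgeR FDR = 0.278), and without the pair of CON replicates 1 and 4 it was 0.19 (edgeR FDR = 0.622).

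TXN (Entrez ID 280950, chromosome 8, 101484821 to 101492586, minus strand) encodes the cytosolic thioredoxin, which also reduces ribonucleotide reductase and methionine sulfoxide reductases. It had 111.5, 145, 125, 109 and 129 CPM in CON and 102, 134, 148.5, 101 and 155 CPM in MET. The MET samples fell on both sides of CON, with replicates 4 and 6 above every CON sample and the pair of replicates 1 and 3 and replicate 5 below every CON sample. The means were 124 ± 14.5 and 128 ± 25.5 CPM, and the log2 fold change over 10 samples was 0.05 (95% interval, -0.28 to 0.38, edgeR FDR = 0.899).

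TXNRD1 (Entrez ID 282388, chromosome 5, 68239611 to 68302679, plus strand) encodes the cytosolic thioredoxin reductase, a selenoprotein. It had 31.2, 32.6, 30.5, 28.5 and 36.7 CPM in CON and 30.6, 32.9, 38.6, 34.7 and 34.4 CPM in MET. The samples of both diets lay in one narrow band. The means were 31.9 ± 3.08 and 34.2 ± 2.92 CPM, and the log2 fold change over 10 samples was 0.10 with the narrowest interval of the set (95% interval, -0.13 to 0.33, edgeR FDR = 0.672).

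SRXN1 (Entrez ID 531606, chromosome 13, 60944183 to 60951049, plus strand) encodes sulfiredoxin. It had 10.1, 9.30, 4.69, 9.80 and 19.2 CPM in CON and 11.8, 9.47, 11.2, 11.3 and 6.60 CPM in MET. Both extremes were CON samples, replicate 6 the highest and replicate 3 the lowest, and all MET samples lay between them. The means were 10.6 ± 5.28 and 10.1 ± 2.13 CPM. The log2 fold change over 10 samples was -0.08 with the widest interval of the set (95% interval, -0.73 to 0.58, edgeR FDR = 0.927), and 0.25 without CON replicate 6 (edgeR FDR = 0.673).

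**Figure D2:**
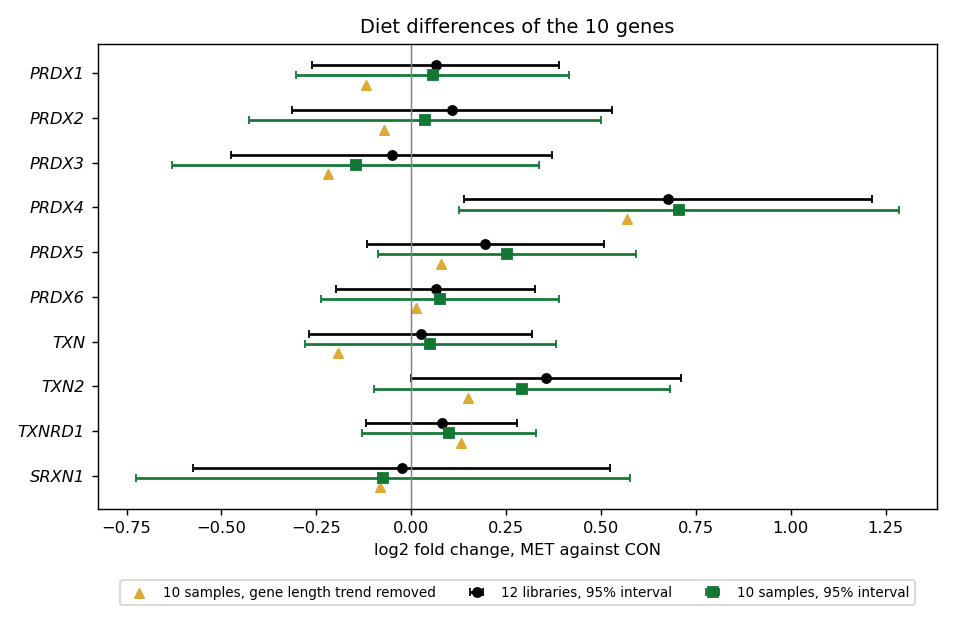
Log2 fold change of MET against CON (horizontal axis) for each gene, over 12 libraries (black circles) and over 10 samples (green squares), with bars for 95% intervals, and over 10 samples after removal of the gene length trend (yellow triangles, no interval). The intervals of PRDX4 alone lie above 0 in both fits, from 0.14 to 1.21 over 12 libraries, before adjustment over all genes.

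In sign, 8 of 10 members had a positive log2 fold change over 12 libraries and 2 a negative one, with a median of 0.07, against 49.6% positive and a median of -0.00 over all 13212 genes. Of the members, 8 have exonic lengths of at most 1676 bases, that of PRDX6. Of the 3132 tested genes no longer than this, 2173 were positive over 12 libraries, with a median of 0.15. With the trend of fold change on gene length removed, 6 of 10 members were positive over 12 libraries, with a median of 0.00, and PRDX1 (-0.10) and TXN (-0.21) took the opposite sign. Over 10 samples 8 of 10 members were positive with the trend left in (median, 0.07) and 5 of 10 with it removed (median, -0.03), where PRDX1 (-0.12), PRDX2 (-0.07) and TXN (-0.19) took the opposite sign, PRDX4 was at 0.57 (edgeR FDR = 0.378) and TXN2 at 0.15. The other members kept their signs, as did PRDX2 over 12 libraries.

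Across the 10 samples the members were compared with each other in 45 pairs, by Pearson correlation of log2 CPM. The median r was 0.16, 32 of 45 pairs were positive, and after adjustment over the 45 pairs 0 passed 0.10 by Pearson or by Spearman correlation, with 4 at an unadjusted permutation p ≤ 0.05. The highest r was that of PRDX1 with TXN (r = 0.81, permutation p = 0.00624, adjusted p = 0.281, Spearman rho = 0.81, permutation p = 0.00742, adjusted p = 0.334). It was 0.86 without MET replicate 6 and CON replicate 6, the 2 samples farthest from the median of PRDX1, and 0.81 on deviations from the diet means. The lowest was that of PRDX3 with PRDX4 (r = -0.64, permutation p = 0.0477, adjusted p = 0.508, rho = -0.49, permutation p = 0.154, adjusted p = 0.458). This relation rested on MET replicate 5 and CON replicate 5, without which r was -0.01. SRXN1 had no r above 0.41 with any other member, and that value was its r with TXNRD1.

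**Figure D3:**
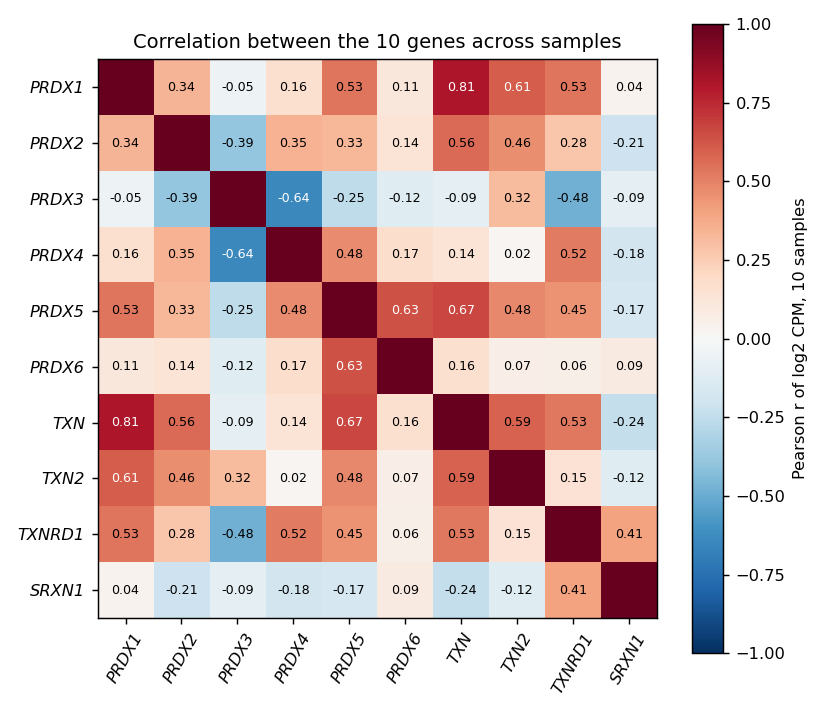
Pearson r of log2 CPM over the 10 samples for each pair of the 10 genes (rows and columns), from -1 (blue) to 1 (red). The values run from -0.64 for PRDX3 with PRDX4 to 0.81 for PRDX1 with TXN, and no pair passed adjustment over the 45 pairs.

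PRDX4 was next set beside other genes of ER protein folding, a comparison chosen after its values were seen, with 7 genes of ER disulfide formation and 6 ER chaperones and stress response genes. All 13 had a positive r with PRDX4 over the 10 samples (median, 0.72, range, 0.30 to 0.84), where 48.1% of all tested genes did, and 8 of 13 had an adjusted permutation p ≤ 0.10 over the 13. Of all tested genes, 1.48% had an r at least as high as that of P4HB (r = 0.74), 1 of these 8. The share of all tested genes at that adjusted p, or at the within-diet p given below, was not available. The highest r of the 13 was that of PDIA6, a protein disulfide isomerase (r = 0.84, permutation p = 0.00187, adjusted p = 0.0220, rho = 0.87, permutation p = 0.00235, adjusted p = 0.0201). For PDIA6, r was 0.75 without MET replicates 5 and 6, the samples farthest from the median of PRDX4, and 0.75 on deviations from the diet means (exact permutation within diets, p = 0.0134), and 0.288% of all tested genes reached its r. XBP1, a transcription factor of the unfolded protein response, had an r of 0.80 (permutation p = 0.00508, adjusted p = 0.0220, rho = 0.85, permutation p = 0.00309, adjusted p = 0.0201), 0.85 without the same samples and 0.71 on deviations from the diet means (exact permutation within diets, p = 0.0598). On such deviations 4 of the 13 genes had an unadjusted p ≤ 0.05 in the exact permutation test, P4HB, PDIA3, PDIA4 and PDIA6. QSOX1, an ER and Golgi sulfhydryl oxidase, went from an r of 0.54 to 0.10 without MET replicates 5 and 6. PDIA6 itself had 213, 315, 519, 360 and 240.4 CPM in CON and 296, 471.5, 504.5, 692 and 505 CPM in MET. MET replicate 5 was thus the highest sample and the pair of CON replicates 1 and 4 the lowest for both PDIA6 and PRDX4. The 6 chaperone and stress response genes summed to between 1864 and 5818 CPM in CON and between 2804 and 5930 CPM in MET, and between diets 0 of the 6 passed FDR ≤ 0.10 in edgeR, 3 had an unadjusted p ≤ 0.05 and 1 passed in DESeq2, where 4.41%, 20.5% and 9.95% of all genes did. Markers of plasma cells, secretory cells rich in ER, summed to between 6.79 and 13.9 CPM in CON and 8.01 and 10.9 CPM in MET. The sum was nearly all JCHAIN, the only one of the 3 that passed the filter. The part of ER content or of plasma cells in the PRDX4 values was not tested.

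PRDX2 was set beside 13 erythroid markers, since red cells and their precursors carry this protein. The markers summed to 8.82 CPM in CON replicates 1 and 4 and to 1088 CPM in CON replicate 2, the lowest and the highest sample for PRDX2 too, and to between 66.0 and 592 CPM in MET. The sum was nearly all HBB, HBG and ALAS2, and the other 10 markers did not pass the filter. Over the 10 samples the log2 levels had a Pearson r of 0.71 (permutation p = 0.0299) and a Spearman rho of 0.56 (permutation p = 0.0964), the only relation in its family. The relation rested on these CON samples, without which r was 0.07. On deviations from the diet means r was 0.73 (exact permutation within diets, p = 0.111), and the part of red cells in the PRDX2 values was not tested.

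**Figure D4:**
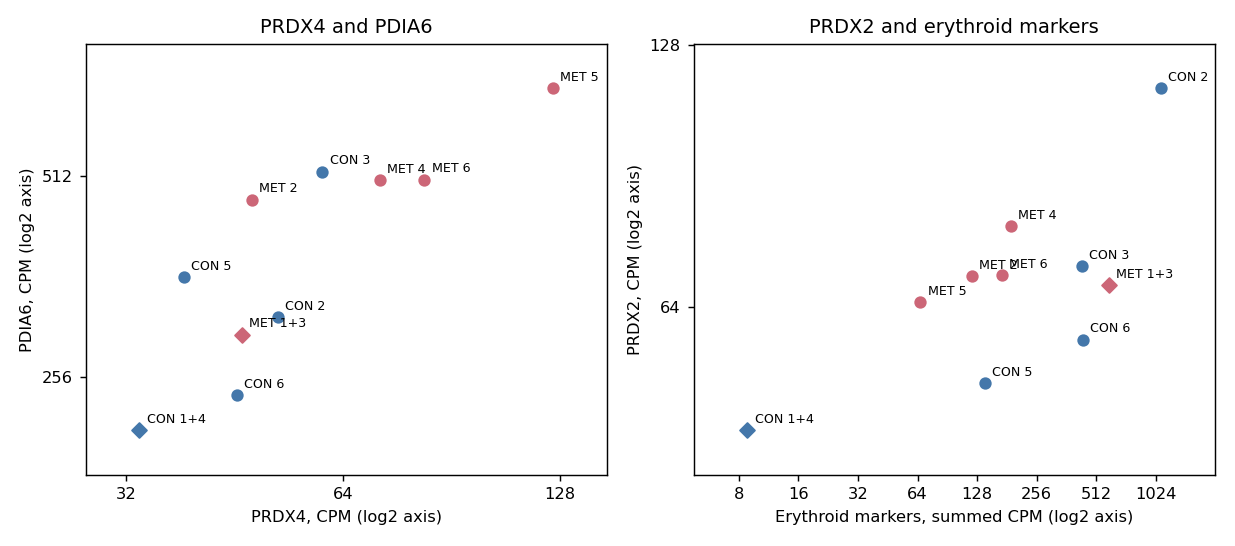
Left, CPM of PDIA6 against CPM of PRDX4. Right, CPM of PRDX2 against the summed CPM of the erythroid markers. Axes are log2, points are the 10 samples (CON blue, MET red, diamonds average 2 libraries). MET replicate 5 and CON replicates 1 and 4 mark the ends on the left (125 and 33.4 CPM of PRDX4), and CON replicate 2 and CON replicates 1 and 4 those on the right (1088 and 8.82 CPM of markers).

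As a description, the 3 tested genes whose log2 CPM followed each of PRDX2, TXNRD1 and SRXN1 most closely over the 10 samples were sought. For PRDX2 they were MAPK3 (r = 0.92), TMEM132A (r = 0.92) and RNASEH2A (r = 0.89). For TXNRD1 they were YBX3 (r = 0.96), RRP7 (r = 0.94) and the nucleolar methyltransferase gene FBL (r = 0.92), and for SRXN1 NUDT5 (r = 0.96), TMEM140 (r = 0.95) and LCMT2 (r = 0.93). These are the highest of 13212 values each, over 10 points that share their libraries. None of the 3 genes nearest to any of these members was another peroxiredoxin or thioredoxin. With 10 members among 13212 genes, this has no bearing on whether the members vary together.

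The genes around the set were counted from 5 lists written from general knowledge. Of 22 thioredoxin and glutaredoxin relatives, 1 rose and 1 fell in MET at FDR ≤ 0.10 in edgeR over 12 libraries, against 2.09% of all genes higher and 2.32% lower, and their median log2 fold change was 0.04. GLRX (glutaredoxin 1, which reduces protein-glutathione disulfides) had 33.7, 44.5, 39.7, 41.5 and 35.6 CPM in CON and 55.4, 48.3, 82.7, 48.0 and 45.4 CPM in MET. Every MET sample lay above every CON sample, as for 1.94% of all tested genes, with MET replicates 2, 5 and 6 closest to the CON range and MET replicate 4 farthest from it. Its log2 fold change was 0.55 (SE, 0.14, edgeR FDR = 0.0781, DESeq2 FDR = 0.0169) over 12 libraries and 0.52 (edgeR FDR = 0.193, DESeq2 FDR = 0.0943) over 10 samples. The 2 neutrophil markers measured, S100A8 and S100A9, also had their highest sum in MET replicate 4, at 67.6 CPM against 5.63 to 23.1 CPM in the other 9 samples, and their part in the GLRX values was not tested. TXNDC16, a thioredoxin domain protein, had 4.14, 3.77, 6.98, 4.17 and 4.57 CPM in CON and 1.36, 3.91, 3.11, 1.90 and 1.85 CPM in MET. The diets overlapped only through MET replicate 2 and CON replicate 2. Its log2 fold change was -1.04 (SE, 0.28, edgeR FDR = 0.0812, DESeq2 FDR = 0.0143) over 12 libraries and -0.98 (edgeR FDR = 0.187, DESeq2 FDR = 0.0660) over 10 samples. TXNIP, which binds and inhibits thioredoxin and was chosen after its values were seen, had a mean of 181 ± 69.1 CPM in CON and 125 ± 18.7 CPM in MET, with a log2 fold change of -0.62 (edgeR FDR = 0.121) over 12 libraries and -0.54 (edgeR FDR = 0.286) over 10 samples. DESeq2 gave TXNIP an FDR of 0.0545 over 12 libraries and 0.217 over 10 samples. TXNDC17 and TXNDC11, of the same list and also chosen after their values were seen, were higher in MET. TXNDC17 had a log2 fold change of 0.39 over 12 libraries (edgeR FDR = 0.101), with DESeq2 FDRs of 0.0186 there and 0.0941 over 10 samples. For TXNDC11 these values were 0.34, 0.133, 0.0619 and 0.0558. With the length trend removed, the log2 fold changes over 12 libraries were 0.20 and 0.35.

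NRF2, encoded by NFE2L2, is the transcription factor known to drive SRXN1, TXNRD1 and PRDX1 under oxidative stress. Of 14 genes of its pathway 13 were tested, and 1 fell and 0 rose at FDR ≤ 0.10 in edgeR over 12 libraries, where 2.32% of all genes fell and 2.09% rose. Their median log2 fold change was -0.15, with 11 of 13 negative over 12 libraries and 9 of 13 over 10 samples, against 50.4% of all genes in either fit. The list mixes NFE2L2 with its regulators and its targets, so this count does not give a direction of NRF2 activity. GCLM, the modifier subunit of the enzyme that starts glutathione synthesis, was the gene that fell. It had 45.3, 54.7, 46.0, 56.8 and 42.8 CPM in CON and 34.8, 43.4, 37.1, 33.3 and 35.5 CPM in MET, and only MET replicate 2 reached the CON range. The log2 fold change was -0.41 (SE, 0.10, edgeR FDR = 0.0719, DESeq2 FDR = 0.0116) over 12 libraries and -0.42 (edgeR FDR = 0.177, DESeq2 FDR = 0.0514) over 10 samples. With the length trend removed over 12 libraries, GLRX, TXNDC16 and GCLM had log2 fold changes of 0.48, -0.97 and -0.32 and did not pass (edgeR FDR = 0.119, 0.116 and 0.165). NFE2L2 itself, chosen after its values were seen, had a mean of 104 ± 11.5 CPM in CON and 86.5 ± 4.47 CPM in MET, with all MET samples below all CON samples, as for 1.77% of tested genes, and missed the threshold in edgeR (log2 fold change, -0.33, edgeR FDR = 0.101 over 12 libraries and 0.255 over 10 samples). DESeq2 gave NFE2L2 an FDR of 0.021 over 12 libraries and 0.137 over 10 samples. Its targets among the members gave 0.10 (TXNRD1), -0.08 (SRXN1) and 0.06 (PRDX1) over 10 samples, as above.

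Of 11 tested genes of NADPH supply, which feeds the thioredoxin reductases, 0 passed FDR ≤ 0.10 in edgeR, with 2 higher and 1 lower in MET at an unadjusted p ≤ 0.05 (10.2% and 10.4% of all genes) and a median log2 fold change of 0.01. The gene with the lowest p was IDH1, the cytosolic isocitrate dehydrogenase, at 173 ± 33.2 CPM in CON and 118 ± 35.6 CPM in MET (log2 fold change, -0.58, edgeR FDR = 0.123 over 12 libraries). Its DESeq2 FDR was 0.0576 over 12 libraries and 0.169 over 10 samples. Of 12 thioredoxin clients and sestrins 0 passed in edgeR, with 1 higher and 2 lower at an unadjusted p ≤ 0.05 and a median of -0.14. RRM2, the S-phase subunit of ribonucleotide reductase, had the lowest p, at 9.14 ± 5.69 CPM in CON and 3.85 ± 1.07 CPM in MET (log2 fold change, -1.04, edgeR FDR = 0.127 over 12 libraries). DESeq2 gave RRM2 an FDR of 0.0520 over 12 libraries and 0.0549 over 10 samples. CON replicates 2 and 3 (13.2 and 17.2 CPM) lay above all other samples, and the other CON samples, at 4.79 to 5.40 CPM, were at or near the MET range of 2.53 to 5.16 CPM. Of 4 proliferation markers, CDK1 and CCNB1 passed FDR ≤ 0.10 in edgeR over 12 libraries, where 4.41% of all genes did, and 0 passed over 10 samples. Their sum, between 17.4 and 70.7 CPM in CON and 8.98 and 23.3 CPM in MET, was also highest in CON replicates 2 and 3, and their part in the RRM2 values was not tested. Of 7 genes of ER disulfide formation 0 passed, with 2 higher at an unadjusted p ≤ 0.05 and a median of 0.20, and PDIA6 had the lowest p (log2 fold change, 0.57, edgeR FDR = 0.228 over 12 libraries). Over 12 libraries DESeq2 called 5, 2, 1, 2 and 0 genes of the 5 lists in the order given, against 9.95% of all genes. Over 10 samples edgeR called 0 genes of any list and DESeq2 4, 1, 0, 1 and 0, against 4.72% of all genes.

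**Figure D5:**
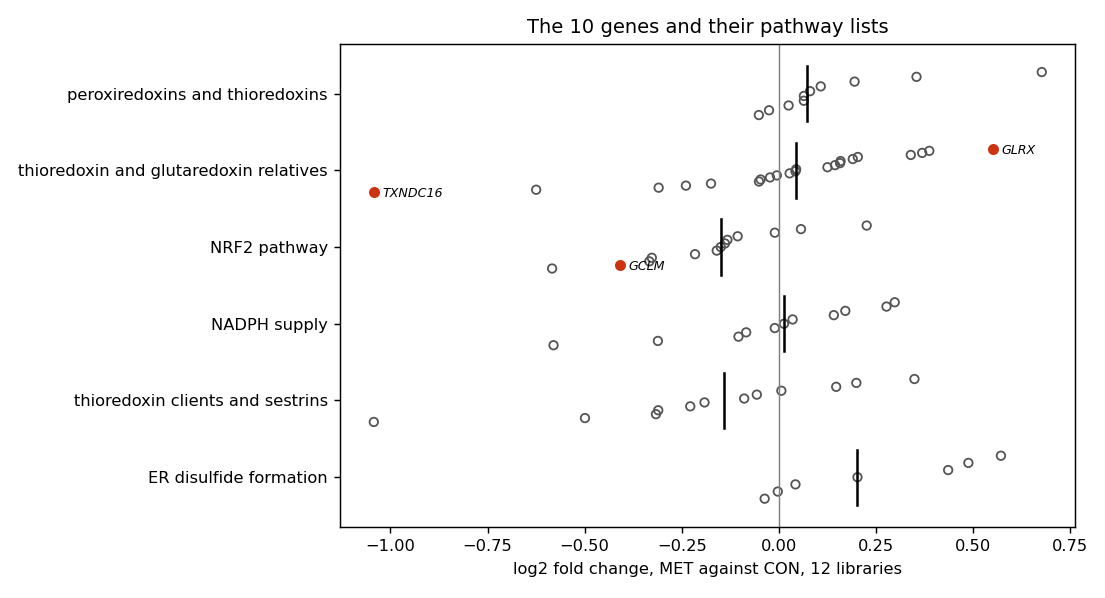
Log2 fold change of MET against CON over 12 libraries (horizontal axis) for each tested gene of the 10-gene set and of 5 pathway lists, with a black line at each median. Red points passed FDR ≤ 0.10 in edgeR (TXNDC16, GLRX and GCLM), open points did not, and the medians run from -0.15 for the NRF2 pathway to 0.20 for ER disulfide formation.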

How the data were processed

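Liver RNA of 12 calves by the labels (6 per diet) was measured. The authors trimmed the reads, aligned them to UMD 3.1.1 with STAR 2.5.3a and deposited raw counts per Entrez gene from featureCounts 1.5.2 (reverse-stranded, exons, 8277789 to 10397604 counted reads per library). With the command in the file headers, reads that map to several places or overlap several genes are not counted, so copies of a member could lower its count. Library depth limits precision: 3 reads correspond to 0.289 to 0.362 CPM.

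Counts were tested in edgeR 4.0.16 (filterByExpr, minimum count 10, TMM, quasi-likelihood F-test, Benjamini-Hochberg over 13212 genes, FDR ≤ 0.10) on 12 libraries, the study's design, and on 10 samples in which near-identical libraries were summed. CPM used TMM-scaled library sizes, averaged over a pair. DESeq2 1.42.0, other scalings, filters and left-out libraries were alternatives. Exact permutation tests used log2 CPM (prior count 2) over 252 arrangements (smallest p, 0.00794), and correlations 100000 permutations. Named genes were the 10 members, list genes past the threshold, the lowest p of each list, and the 3 nearest genes of PRDX2, TXNRD1 and SRXN1. TXNIP, TXNDC11, TXNDC17, NFE2L2 and the ER genes set beside PRDX4 were added after their values were seen. Members and lists were chosen with earlier results of these data known. The scripts were tested on simulated data in which all libraries were independent. Over 12 libraries, edgeR recovered 86 of 99 genes changed by 1 on the log2 scale and called 18 unchanged genes. Over 10 samples it recovered 82 of 100 and called 21 unchanged genes. No smaller change was simulated, so these rates do not apply to the fold changes of the members. Sequences were not used here.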

Additional observations from a re-analysis of the deposited data

Results flagged for a closer look

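In 32 groups of 5 samples, those of the 10 members and of the 6 named pathway genes, 1 sample stood apart from the other 4 of its diet in 2 groups, where chance flags about 1 in 20. GLRX was at 82.7 CPM in MET replicate 4, against 45.4 to 55.4 CPM in the other MET samples. The summed neutrophil markers were highest in the same sample (67.6 CPM, against 5.63 to 23.1 CPM in the other samples), and their part in the GLRX value was not tested. TXNDC16 was at 6.98 CPM in CON replicate 3, against 3.77 to 4.57 CPM in the other CON samples. No member was flagged in this way.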

How the results depend on the processing

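The count of members past FDR ≤ 0.10 was 0 in edgeR under every scaling, filter, left-out library and replicate block tried, and 1 in DESeq2 over 12 libraries (PRDX4). Of all genes, 583 passed in the main setting, 107 with library size only, 238 with no filter, 1314 in DESeq2, 250 with the gene length trend removed, 6 with the replicate block, 0 over 10 samples, and 26 (without CON replicate 1) to 565 with 1 library left out. The replicate numbers did not pair the calves: the deviations of same-numbered libraries correlated at between -0.19 and 0.15. The settings on 10 samples with DESeq2, without the length trend or with 1 sample left out, and the PRDX4 comparison with ER genes, were chosen after seeing the data.

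Members whose log2 fold change crossed 0 were never past the threshold. Removing the length trend gave -0.10 (PRDX1) and -0.21 (TXN) over 12 libraries, and -0.12 (PRDX1), -0.071 (PRDX2) and -0.19 (TXN) over 10 samples. SRXN1 was at 0.0028 with library size only and 0.063 with the replicate block. With 1 library or sample left out, the log2 fold change ran from -0.054 to 0.17 for PRDX1, -0.078 to 0.35 for PRDX2, -0.27 to 0.083 for PRDX3, -0.017 to 0.14 for PRDX6, -0.053 to 0.12 for TXN and -0.26 to 0.25 for SRXN1, while PRDX4 (0.43 to 0.84), PRDX5 (0.08 to 0.35), TXN2 (0.19 to 0.45) and TXNRD1 (0.04 to 0.16) stayed above 0. The members' median moved by less than 0.13, the spread between samples, in the 23 settings for which it was computed.

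No member pair passed 0.10 in any setting tried except without CON replicate 6, where 1 did. PRDX2 with erythroid markers had an r of 0.73 on deviations from the diet means, and 0.54 (without CON replicates 1 and 4) to 0.79 with 1 sample left out.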
